A study of Mus musculus with 12 samples.

Results

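The 10 genes Ifi27, Ifi27l2a, Ifi35, Ifi44, Nmi, Epsti1, Xaf1, Samd9l, Phf11d and Lgals3bp are interferon-stimulated genes that are less studied than the classical antiviral effectors. They were chosen by name among the 23472 genes of the count table, with earlier results of these data known. All 10 had a row, 9 under these symbols and Ifi27 under Ifi27l1, which RefSeq lists as an older symbol of it. All 10 passed the filter on low counts, which kept 13184 genes.

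The libraries were made from marrow LT-HSCs of C57BL/6 mice, the long-lived haematopoietic stem cells from which all blood lineages derive. Of the 12, 6 carry the label Jak1 KO and the genotype cre-positive, and 6 the label wt and the genotype cre-negative. Both groups had been given 4 doses of poly(I:C), which mimics viral RNA and itself induces interferon, to trigger deletion 4 to 6 weeks before harvest. In each group libraries 1 to 3 carried names of a VD series and libraries 4 to 6 names of a ZL series. These name sets were fitted as a term, although the labels do not say what they stand for. Names of the VD libraries begin with MXplus in the group labelled KO and with MXminus in wt, and the labels do not explain MX. They state neither the promoter of the cre nor the deleted exons. Since only 1 group carries cre, cre itself and a loss of Jak1 cannot be told apart. Nothing in the labels ties each library to its own animal, and p-values therefore measure only how these samples vary, which may be technical.

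Type I interferons bind a receptor that carries the kinases JAK1 and TYK2, which phosphorylate transcription factors of the STAT family. With IRF9 these form ISGF3, a complex that binds interferon-stimulated response elements in the promoters of its target genes. Interferon gamma also signals through JAK1, with JAK2, and leads to factors that bind GAS elements. Blood stem cells respond to interferon, which can drive them out of quiescence, and they express some of its target genes without infection.

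Library totals ranged from 8989965 to 28701855 counts in the libraries labelled KO and from 9824802 to 28261886 in the wt libraries. Jak1 itself was counted at 245.8 to 727.5 normalised CPM (counts scaled to library size with TMM factors) in the libraries labelled KO and at 321.0 to 435.1 in wt libraries. In VD every library labelled KO stood above every wt library (375.1 to 408.5 against 321.0 to 358.2 CPM), and in ZL the groups overlapped. A count over the whole gene also takes in exons outside a deleted part, so it checks no label, and the groups are named by label alone. Summed over 9 LT-HSC markers, levels were 1968 to 4585 CPM in the libraries labelled KO and 2375 to 4677 in wt libraries. Of 10 marker lists of other cell types, only the sum over 5 megakaryocyte genes separated the groups, at 381.3 to 720.9 CPM in the libraries labelled KO and 773.2 to 1038 in wt libraries. Of those 5 genes 1, Itga2b, was called lower (edgeR adjusted p = 0.0247). It averaged 267.9 CPM in the libraries labelled KO and 547.6 in wt, Pf4 131.4 in KO and 275.9 in wt, and Gp1bb 9.04 in KO and 19.6 in wt, while Gp9 (52.0 in KO, 51.5 in wt) and Ppbp (12.3 in KO, 10.7 in wt) were not lower. None of those 5 was at 0 throughout, and their part in the results was not tested. Monocyte and macrophage markers summed to 4.44 to 32.7 CPM in the libraries labelled KO and 4.85 to 28.7 in wt. Neutrophil markers ranged widely between libraries of both groups, from 9.96 to 1263 CPM in the libraries labelled KO and from 7.30 to 1298 in wt. In bulk RNA, fewer cells of a type and less RNA per cell cannot be told apart.

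Phf11d, Ifi27 and Ifi44 fell in the libraries labelled KO, by 9.39-fold, 4.10-fold and 4.02-fold, and the other 7 genes did not pass the test. Counted over all genes tested, 3 of the 10 passed an adjusted p of 0.05 and were lower (edgeR quasi-likelihood test, Benjamini-Hochberg), against 0.432% of the 13184 genes. None was higher. At an unadjusted p under 0.05, 6 of the 10 were lower, against 2.66% of all genes (5.06% in either direction). All 10 log2 fold changes were below 0, against 51% of all genes, but Nmi (-0.04) turned positive with DESeq2's size factors (0.02) and with upper quartile scaling (0.0024). The median of the 10 was -0.61 and that of all genes -0.006. Since the 10 were chosen with earlier results of these data known, such comparisons with all genes are a description and no independent test. The 10 genes divide into a group of 4 with log2 fold changes of -1.82 or lower, a group of 3 between -0.68 and -0.36, and a group of 3 within -0.21 of 0.

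**Figure D1:**
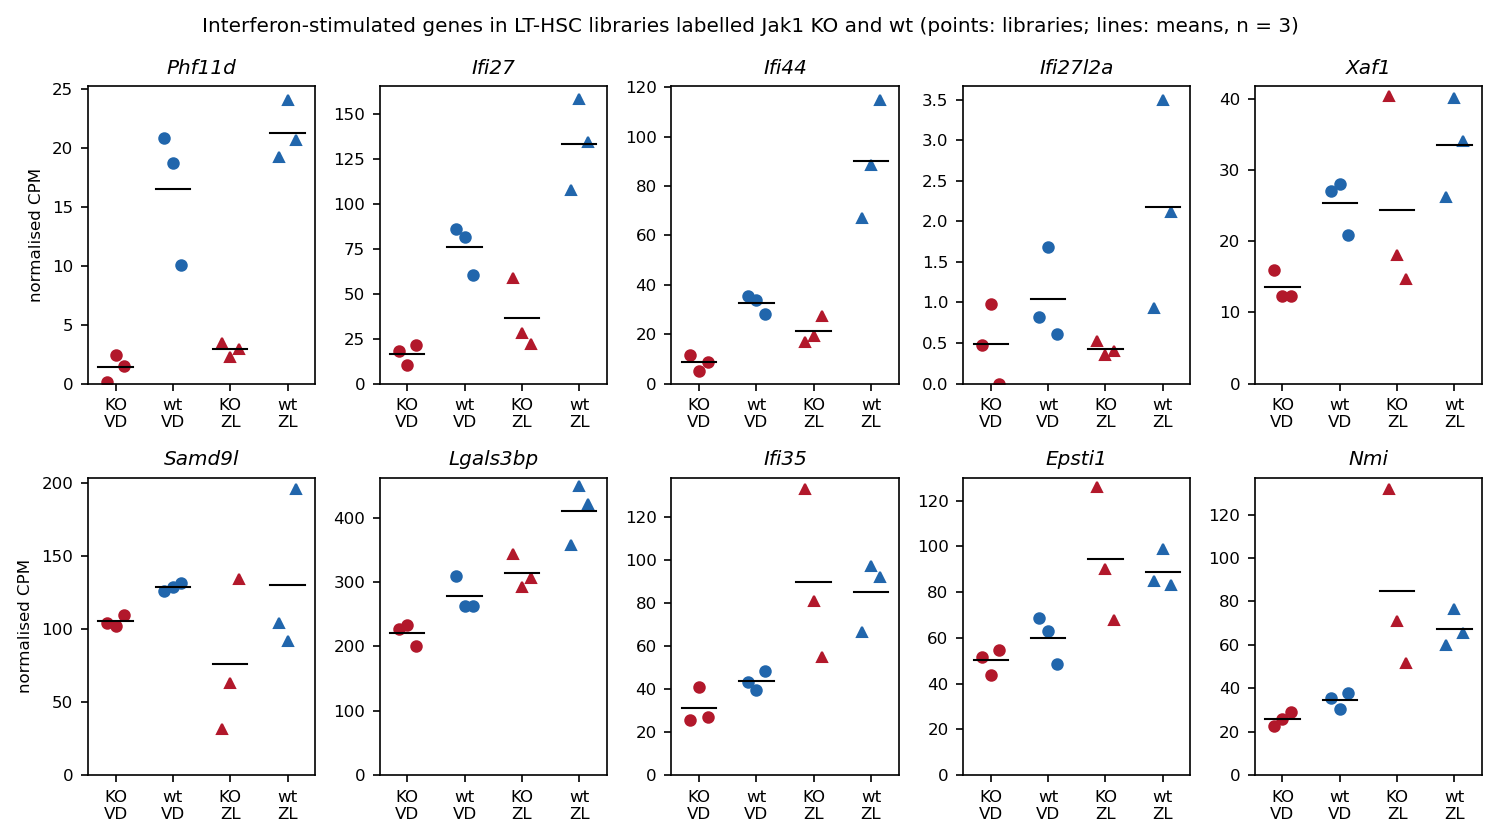
Normalised CPM (y axis, from 0) of each gene in each library, with circles for VD and triangles for ZL libraries, red for Jak1 KO and blue for wt, and lines at the means of 3 libraries. In Phf11d, Ifi27 and Ifi44 every red point of a name set lies under every blue point of that set, whereas in Nmi, Epsti1 and Ifi35 the ZL points overlap and the library labelled Jak1 KO 4 is the highest of all.

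Promoter sequences were searched for motifs linked to the interferon response. RefSeq windows of 300 bases, 250 before and 50 after a transcript start, were at hand for 8 of the 10 genes (GRCm38.p6). None was at hand for Ifi27 and Ifi27l2a, whose log2 fold changes of -2.03 and -1.82 were among the lowest of the 10. All 8 held at least 1 match to AANNGAAA, the core to which interferon regulatory factors bind, on either strand, against 23.9% of 32851 windows of the genome. So did 44 of 53 other interferon-stimulated genes with a window (83%), against 21.3% of all 9787 tested genes with a window. A longer form, this core followed by CT, stood in 5 of the 8, in Phf11d, Ifi44, Xaf1, Samd9l and Lgals3bp, against 1.72% of all windows. Both cores were searched after the full response element had not been found and the sequences had been seen. Their shares are therefore a description and no test, and every match to the longer form is also a match to the short core. None of the 8 held the full interferon-stimulated response element (GAAA, any 2 bases, GAAA), which 3.44% of windows hold. The GAS motif TTCNNNGAA was found in 1 of the 8, Ifi35, where it overlaps the IRF core, against 8.30% of windows. A match is a description of letters and not a binding site. Windows of the 2 genes with the lowest fold changes in the table of promoters, of Xaf1 and of Nmi are shown, since they range from a long core at the start to a single short core farther from it. The windows of Xaf1 and Nmi belong to a transcript start that lies inside the annotated gene. The whole window of Nmi and part of that of Xaf1 are within the gene's outer bounds, with the marked cores of both genes. They read 5′ to 3′ in the direction of the gene, and capitals mark the matches to AANNGAAA or to its reverse complement TTTCNNTT.
Phf11d, chr14:59365441-59365740, minus strand: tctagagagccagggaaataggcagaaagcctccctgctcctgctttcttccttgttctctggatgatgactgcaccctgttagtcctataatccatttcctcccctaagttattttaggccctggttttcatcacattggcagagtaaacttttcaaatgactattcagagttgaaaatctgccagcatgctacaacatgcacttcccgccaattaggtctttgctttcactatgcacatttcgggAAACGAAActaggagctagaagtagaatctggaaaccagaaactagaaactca
Ifi44, chr3:151749861-151750160, minus strand: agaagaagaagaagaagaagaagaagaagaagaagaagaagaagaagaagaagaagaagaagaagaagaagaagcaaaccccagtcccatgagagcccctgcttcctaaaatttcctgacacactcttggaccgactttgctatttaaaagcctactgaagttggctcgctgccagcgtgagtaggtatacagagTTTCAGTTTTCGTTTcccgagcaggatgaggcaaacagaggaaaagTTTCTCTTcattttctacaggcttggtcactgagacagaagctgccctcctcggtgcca
Xaf1, chr11:72301379-72301678, plus strand: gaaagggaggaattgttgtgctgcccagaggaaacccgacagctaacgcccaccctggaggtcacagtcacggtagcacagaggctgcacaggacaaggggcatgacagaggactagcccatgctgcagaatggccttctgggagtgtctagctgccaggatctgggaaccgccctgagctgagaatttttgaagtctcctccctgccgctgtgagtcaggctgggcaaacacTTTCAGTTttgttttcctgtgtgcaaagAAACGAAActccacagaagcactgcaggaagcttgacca
Nmi, chr2:51973159-51973458, minus strand: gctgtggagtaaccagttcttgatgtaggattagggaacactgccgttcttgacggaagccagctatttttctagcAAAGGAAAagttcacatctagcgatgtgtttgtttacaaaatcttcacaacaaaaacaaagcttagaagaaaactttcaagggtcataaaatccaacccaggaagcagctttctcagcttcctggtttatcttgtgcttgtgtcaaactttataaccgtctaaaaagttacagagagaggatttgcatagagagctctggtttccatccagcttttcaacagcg

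Positions give the first base of a match, with the first transcribed base as 1 and the base before it as -1. In Phf11d the long core, read as AAACGAAACT, begins at -3 relative to the RefSeq start, although no GENCODE transcript of Phf11d held the last 50 bases of this window. Xaf1 holds the same 10 letters at 12. Samd9l and Lgals3bp share another version, AATCGAAACT, at 28 in Samd9l and at -14 in Lgals3bp. Ifi44 carries the long core on the opposite strand at -57 and -11, as AGTTTCAGTT and AGTTTCTCTT, and its short cores at -55 and -48 overlap. The single short core begins at -174 in Nmi and at -249 in Epsti1. Median log2 fold changes were -0.68 over the 5 genes with the long core and -0.08 over the 3 without it, Ifi35, Epsti1 and Nmi. Ifi27 and Ifi27l2a, which had no window, are in neither group. Among 53 other interferon-stimulated genes with a window, 28 held the long core, with a median log2 fold change of -0.73 and 11 lower, and 25 did not, with a median of -0.43 and 1 lower. Over all 9787 tested genes with a window the medians were -0.13 for the 166 with the long core and -0.008 for the 9621 without it. Of those 166 genes 15 were lower, and of those 9621 genes 20 were lower, interferon-stimulated genes included. As the long core was chosen after sequences of the 10 genes had been seen, this split is a description and no test.

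**Figure D2:**
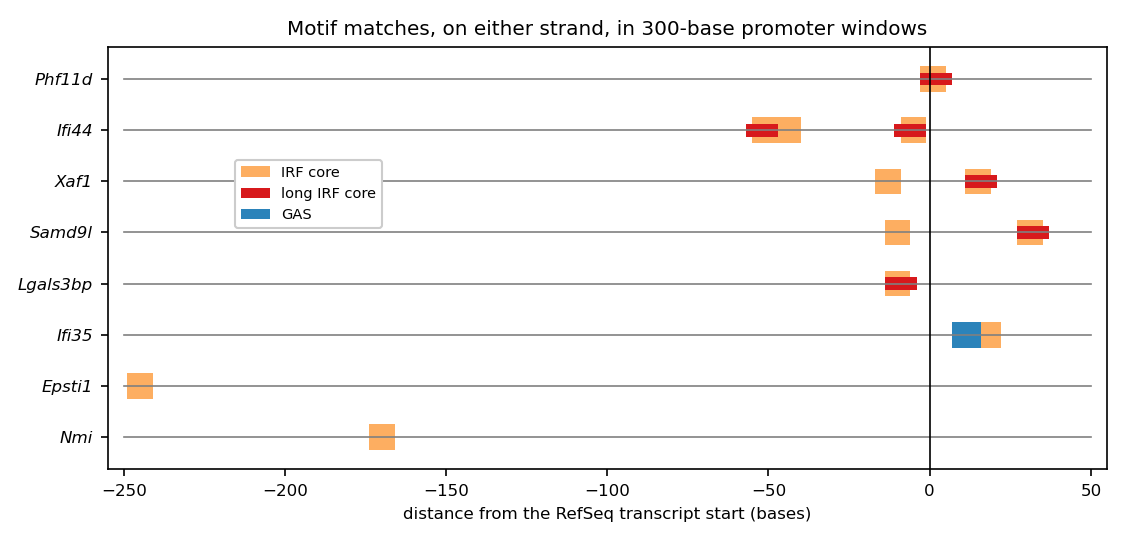
Position of motif matches on either strand, as distance in bases from the RefSeq transcript start (x axis), in the promoter windows of 8 genes ordered by fold change from the lowest at the top. Orange bars are the short IRF core, red bars the long core and the blue bar the GAS motif. The long core lies between -57 and 28 in the upper 5 genes and is not in the window of the lower 3. Ifi27 and Ifi27l2a had no window and are not shown.

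Ifi27 and Ifi27l2a encode small hydrophobic membrane proteins of the ISG12 family. Ifi27 lies on chromosome 12 from 103434189 to 103440245, on the plus strand, within the span of Ifi27l2a, which reaches from 103433873 to 103443680 on the minus strand. Their annotated exons share no base. Ifi27 stood at 18.1, 10.3 and 21.7 CPM in VD and 58.6, 28.2 and 21.7 in ZL libraries labelled KO, against 86.0, 81.8 and 60.5 in VD and 107.8, 158.1 and 134.2 in ZL wt libraries. Every library labelled KO lay below every wt library, also across the name sets. The highest of them, Jak1 KO 4 at 58.6 CPM, lay just below the lowest wt library, wt 3 at 60.5 CPM. Its log2 fold change was -2.03 (SE 0.26, 95% interval -2.59 to -1.48, edgeR adjusted p = 0.00111), and of all 13184 genes it ranked 18 by p.

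Ifi27l2a was rare, with 0 to 11 counts in the libraries labelled KO and 7 to 105 in wt libraries. It stood at 0.480, 0.976 and 0 CPM in VD and 0.528, 0.349 and 0.398 in ZL libraries labelled KO, against 0.814, 1.68 and 0.612 in VD and 0.932, 3.49 and 2.11 in ZL wt libraries. The groups overlapped in VD and not in ZL. The 0 among 10332245 counts of Jak1 KO 3 allows up to 0.281 CPM, or 27.1% of the VD wt mean, by a floor of 3 counts that covers counting error only. The log2 fold change of -1.82 had an SE of 0.62 and did not pass (95% interval -3.14 to -0.50, edgeR adjusted p = 0.635). Its wt libraries ranged from 0.612 to 3.49 CPM. Its relative Ifi27l2b had a mean of 0.0601 CPM in the libraries labelled KO and 0.0718 in wt, too few counts to be tested.

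Ifi44 encodes a cytoplasmic protein associated with the antiviral state and lies on chromosome 3 from 151730922 to 151749910, minus strand. It was counted at 11.8, 5.00 and 8.90 CPM in VD and 16.8, 19.3 and 27.2 in ZL libraries labelled KO, against 35.6, 33.9 and 28.1 in VD and 66.9, 88.5 and 115.0 in ZL wt libraries. The groups did not overlap, and the ZL libraries stood higher in both. Its log2 fold change was -2.01 (SE 0.22, 95% interval -2.48 to -1.53, edgeR adjusted p = 0.000407), rank 10 of all genes by p. The relative Ifi44l had 0 counts in all 12 libraries.

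Phf11d, a PHD finger gene on chromosome 14 from 59347407 to 59365490, minus strand, had the lowest fold change of the 10. Its levels were 0.160, 2.44 and 1.499 CPM in VD and 3.47, 2.29 and 2.91 in ZL libraries labelled KO, against 20.8, 18.7 and 10.1 in VD and 19.2, 24.1 and 20.6 in ZL wt libraries. The groups did not overlap, and the highest library labelled KO lay below the lowest wt library by a wide margin. Relative to wt the log2 fold change was -3.23 (SE 0.40, 95% interval -4.09 to -2.37, edgeR adjusted p = 0.001), and 11.2% of the mean wt level was left. Jak1 KO 1 held only 2 counts, which is 0.967% of the VD wt mean with a counting interval of 0.117% to 3.49%.

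Phf11d belongs to a cluster of closely related genes that may share its reads, which makes separate values uncertain. Phf11b stood at 6.68 ± 6.20 CPM in the libraries labelled KO and 8.92 ± 3.70 in wt libraries (SD, n = 6 each; log2 fold change -0.59, SE 0.33). Phf11c stood at 1.79 ± 0.683 CPM in the libraries labelled KO and 3.36 ± 2.88 in wt (-0.55, SE 0.49). Phf11, listed under the older symbol Gm6904, was at 1.30 ± 0.739 in the libraries labelled KO and 0.675 ± 0.385 CPM in wt (0.87, SE 0.52). None of these 3 passed (edgeR adjusted p = 0.945 for each), and Phf11a, at means of 0.263 CPM in the libraries labelled KO and 0.661 in wt, was too rare to be tested.

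Xaf1 and Samd9l have roles in cell death and growth. Xaf1, which binds and opposes the apoptosis inhibitor XIAP, lies on chromosome 11 from 72301461 to 72313733, plus strand. Its levels were 15.9, 12.3 and 12.3 CPM in VD and 40.4, 18.0 and 14.7 in ZL libraries labelled KO, against 27, 28.0 and 20.9 in VD and 26.2, 40.1 and 34.1 in ZL wt libraries. In 5 of the 6 libraries labelled KO it was below every wt library, and in Jak1 KO 4 above every one. The log2 fold change of -0.68 (SE 0.24) did not pass (edgeR adjusted p = 0.731), and without Jak1 KO 4 it was -0.92 (SE 0.17, adjusted p = 0.0236). The second value comes from 1 of 12 fits that each left out a library and is no independent test. Xiap itself stood at 81.6 ± 49.9 CPM in the libraries labelled KO and 75.9 ± 45.3 in wt (SD, n = 6 each; log2 fold change 0.09, SE 0.17, edgeR adjusted p = 0.953). Nr4a1, a nuclear receptor gene listed with the partners, was at 8.53 ± 4.18 CPM in the libraries labelled KO and 10 ± 4.67 in wt (-0.26, SE 0.26, adjusted p = 0.945).

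Samd9l encodes a SAM-domain protein that restrains growth, and inherited changes in its human counterpart cause bone marrow failure. It lies on chromosome 6 from 3372257 to 3399571, minus strand. In VD it was at 104.3, 102.1 and 109.2 CPM in the libraries labelled KO, against 125.9, 129.0 and 131.6 in wt libraries, a narrow and separate pair of ranges. In ZL it was at 31.5, 62.8 and 133.8 CPM in the libraries labelled KO, against 103.9, 91.6 and 195.4 in wt libraries, which overlap and spread widely. Over all 12 libraries the log2 fold change was -0.53 (SE 0.29, 95% interval -1.15 to 0.09) and did not pass (edgeR adjusted p = 0.945).

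Nmi and Ifi35 encode partner proteins that bind each other, and Nmi also binds STAT proteins. Nmi lies on chromosome 2 from 51948498 to 51973489, minus strand, and Ifi35 on chromosome 11 from 101448412 to 101458701, plus strand. In VD, Nmi was at 22.5, 25.7 and 28.96 CPM in the libraries labelled KO, against 35.3, 30.6 and 38.0 in wt libraries, without overlap. In ZL it was at 131.7, 71.1 and 51.8 CPM in the libraries labelled KO, against 59.8, 76.8 and 65.6 in wt libraries. Jak1 KO 4 thus held the highest Nmi level of all 12 libraries. Its log2 fold change was -0.04 (SE 0.23, 95% interval -0.53 to 0.44, edgeR adjusted p = 0.98), and -0.25 (SE 0.15, adjusted p = 0.987) without Jak1 KO 4.

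Ifi35 followed a like course, with 25.5, 41.0 and 26.99 CPM in VD and 133.2, 81.0 and 55.2 in ZL libraries labelled KO, against 43.4, 39.8 and 48.5 in VD and 66.5, 97.4 and 92.1 in ZL wt libraries. The groups overlapped in both name sets. Its log2 fold change was -0.21 (SE 0.22, 95% interval -0.69 to 0.27, edgeR adjusted p = 0.945), and -0.38 (SE 0.17) without Jak1 KO 4. Of its 1727 annotated exon bases, 290 also belong to the gene model Gm11626 on the other strand, and reads there cannot be told apart because the strand setting is not given. Per exon length, Nmi stood at 0.542 to 0.926 times the level of Ifi35 in the libraries labelled KO and at 0.615 to 0.776 times in wt libraries.

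Epsti1, an interferon-induced gene first described in breast cancer cells grown with stroma, lies on chromosome 14 from 77904239 to 78002656, plus strand. It stood at 51.7, 43.9 and 54.6 CPM in VD and 126.0, 90.2 and 67.6 in ZL libraries labelled KO, against 68.6, 63.2 and 48.4 in VD and 84.8, 98.7 and 83.1 in ZL wt libraries. The groups overlapped in both name sets, and Epsti1 did not pass (log2 fold change -0.08, SE 0.17, 95% interval -0.45 to 0.28, edgeR adjusted p = 0.953).

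Lgals3bp encodes a secreted glycoprotein that binds galectin-3 and lies on chromosome 11 from 118392747 to 118401959, minus strand. It was the most abundant of the 10, ranking 284 of the 13184 genes by mean wt CPM. Its levels were 227.6, 232.9 and 200.3 CPM in VD and 343.1, 292.5 and 306.4 in ZL libraries labelled KO, against 309.9, 263.6 and 263.0 in VD and 358.0, 450.3 and 421.6 in ZL wt libraries. Within each name set every library labelled KO lay below every wt library, by a small margin. A log2 fold change of -0.36 was estimated (SE 0.12, 95% interval -0.62 to -0.11) but did not pass (edgeR adjusted p = 0.561, unadjusted 0.00876). Lgals3, which encodes galectin-3, was at 4.73 ± 3.47 CPM in the libraries labelled KO and 3.69 ± 2.09 in wt (SD, n = 6 each; log2 fold change 0.10, SE 0.29).

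The 3 genes that passed were lower in both name sets. In VD alone (3 against 3 libraries) the log2 fold changes of Phf11d, Ifi27 and Ifi44 were -3.63, -2.14 and -1.87, and all 3 passed edgeR's test (adjusted p = 0.00282, 8.12e-05 and 0.000863), against 0.76% of 12903 genes called lower. At an unadjusted p under 0.05, 8 of the 9 tested there were lower, against 7.15% of those genes. In ZL alone they were -2.89, -1.89 and -2.09, and none of the 10 passed, as 0% of 13859 genes were called lower there (adjusted p = 0.103, 0.736 and 0.262 for the 3). At an unadjusted p under 0.05, 146 genes were lower in ZL (1.05%), and these 3 and Ifi27l2a were among them. Every library labelled KO lay below every wt library in 7 of the 10 genes in VD, against 13.2% of all genes, in 5 in ZL, against 2.34%, and in 4 in both sets, against 0.963%. Those 4 were Phf11d, Ifi27, Ifi44 and Lgals3bp. Tested as an interaction, no difference of the genotype effect between the name sets was detected in any of the 10 (0 past edgeR's adjusted p of 0.05, as for 0% of all genes, and 0 at an unadjusted p under 0.05, against 1.38% of all genes; DESeq2 also called 0). Nmi came nearest, with log2 fold changes of -0.39 in VD and 0.33 in ZL (edgeR interaction, adjusted p = 0.975).

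**Figure D3:**
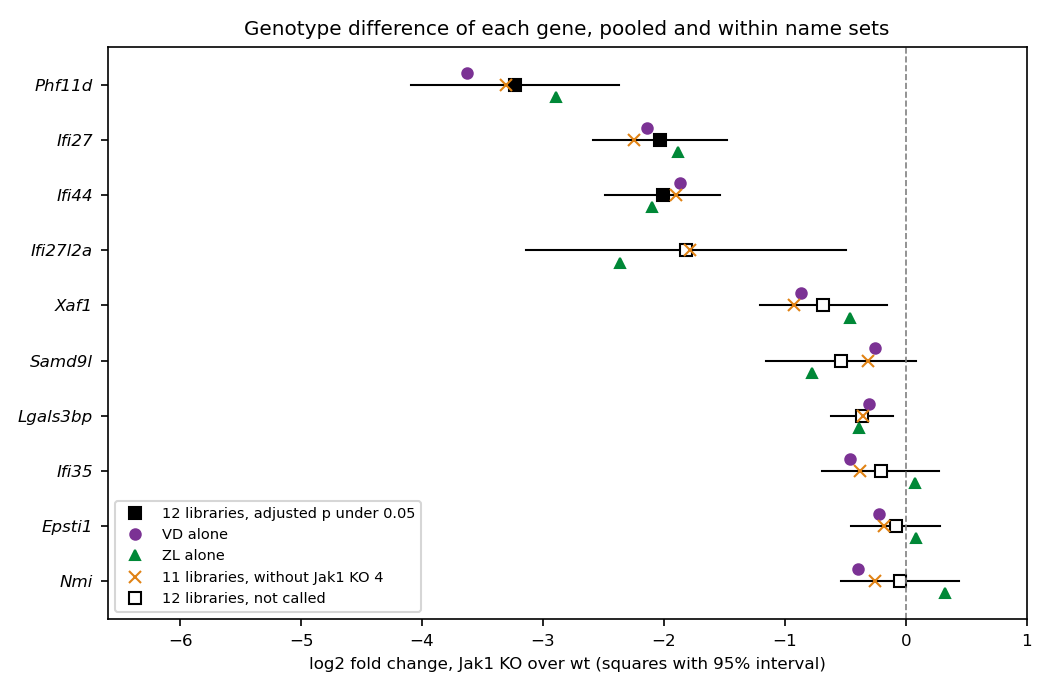
Log2 fold change of Jak1 KO over wt (x axis) of each gene, with squares and 95% intervals for all 12 libraries (filled where the adjusted p was under 0.05), purple circles for VD alone, green triangles for ZL alone and orange crosses for the fit without Jak1 KO 4. Phf11d, Ifi27 and Ifi44 lie between -1.87 and -3.63 in every fit shown, and the intervals of Samd9l, Ifi35, Epsti1 and Nmi hold 0.

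The wt libraries of the 2 name sets also differed. In 6 of the 10 genes every ZL wt library lay above every VD wt library, against 35.1% of all genes, and the wt mean of Ifi44 in ZL was 2.77 times that in VD. The smallest such ratio, 1.01, was that of Samd9l. Levels of the 10 genes relative to the wt mean of the own name set had medians of 60.5%, 73.7% and 55% in Jak1 KO 1 to 3 and 63.8%, 51.0% and 54.2% in Jak1 KO 4 to 6, against 108%, 104% and 84.4% in wt 1 to 3 and 80.2%, 114% and 102% in wt 4 to 6. All 10 genes were below the wt mean in each of Jak1 KO 1 to 3, and 6, 8 and 9 were in Jak1 KO 4 to 6. By the same count, 3, 3 and 7 genes were below it in wt 1 to 3 and 10, 2 and 4 in wt 4 to 6, so that wt 4 also had all 10 below the mean of its set. The share of all genes below the wt mean in each library was not computed, so these counts describe the 10 genes only.

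**Figure D4:**
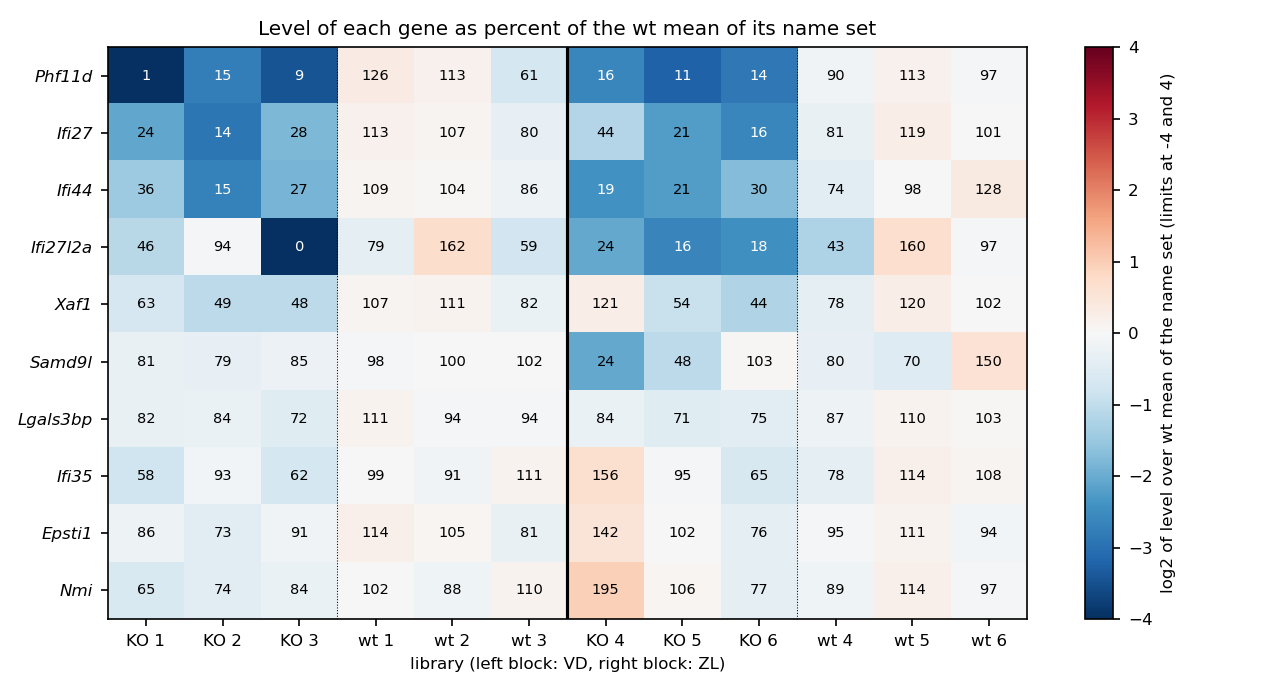
Level of each gene (rows, lowest fold change at the top) in each library (columns, VD left and ZL right, Jak1 KO before wt in each), printed as percent of the wt mean of the name set and coloured by its log2. Phf11d lies at 0.967% to 16.3% in the 6 libraries labelled KO, while the column of Jak1 KO 4 holds both 195% for Nmi and 16.3% for Phf11d.

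All 3 ZL libraries labelled KO differed from one another. The chi-square of counts per degree of freedom was 146 for Jak1 KO 4 and 5, 150 for Jak1 KO 5 and 6, and 344 for Jak1 KO 4 and 6. Jak1 KO 4 held the highest level of those 3 in 8 of the 10 genes, and the share over all genes was not computed. Its log2 CPM relative to the mean of Jak1 KO 5 and Jak1 KO 6 had a median of 0.551 over the 10 genes and -0.0279 over 13074 genes. Summed erythroid markers were highest in it, at 5609 CPM, against 828.3 to 3020 in wt libraries, and LT-HSC markers lowest, at 1968 CPM. Its log2 CPM relative to the mean of Jak1 KO 5 and Jak1 KO 6 fell with exon length over 13074 genes (Spearman -0.52). This describes 3 libraries and does not say in which of them the trend arose. By the same contrast, the longest 2 of the 10 genes, Samd9l (5427 exon bases) and Ifi44 (6129), differed by -1.54 and -0.45 on the log2 scale. The other 8 were higher in Jak1 KO 4, by up to 1.31 for Xaf1 (4689 exon bases). The part of the length trend and of these markers in the levels of the 10 genes was not tested.

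Per kilobase of exon, the level of Lgals3bp was highest, at 93.8 ± 19.3 RPKM in the libraries labelled KO and 121 ± 28.0 in wt libraries (SD, n = 6 each). Ifi27 was second in wt at 71.4 ± 24.7 RPKM but the fifth in the libraries labelled KO, at 18.0 ± 11.5. Ifi35, Epsti1, Nmi and Samd9l lay between 16.7 and 35.0 RPKM in the libraries labelled KO and between 23.9 and 37.4 in wt, and neighbours in this order did not differ beyond their SDs. Ifi44, Xaf1, Phf11d and Ifi27l2a were lowest, between 0.473 and 4.04 RPKM in the libraries labelled KO and between 3.47 and 10 in wt. Phf11d was ninth in wt and last in the libraries labelled KO.

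Among genes that carry the interferon signal, Irf7 and Irf9 were lower. Irf7, a transcription factor that amplifies the type I response, was at 6.80 ± 3.01 CPM in the libraries labelled KO and 28.1 ± 11.6 in wt libraries (SD, n = 6 each; log2 fold change -2.06, SE 0.23, edgeR adjusted p = 0.000407). Irf9 was at 47.1 ± 7.43 CPM in the libraries labelled KO and 123 ± 36.6 in wt (-1.35, SE 0.14, adjusted p = 0.00034). Stat2 (-0.68, SE 0.33, adjusted p = 0.945) and Irf1 (-0.66, SE 0.14, adjusted p = 0.0621) did not pass. Neither did the receptor genes Ifnar1, Ifnar2, Ifngr1 and Ifngr2 or the kinases Jak1, Jak2 and Tyk2.

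Among 70 other interferon-stimulated genes tested, 20 were lower, none higher and 50 not past the threshold, with a median log2 fold change of -0.66 and 67 below 0. The smallest p-values were those of the interferon-inducible GTPases Iigp1 (-2.63, SE 0.19, edgeR adjusted p = 2.43e-05) and Igtp (-1.39, SE 0.15, adjusted p = 0.000369), of Oas2 (-6.34, SE 0.74, adjusted p = 0.000542), an activator of RNase L, and of Rtp4 (-2.998, SE 0.36, adjusted p = 0.00076), which encodes a receptor transporter protein. The count of 20 was sensitive to single libraries and came to 11 without wt 1, without Jak1 KO 2 or without Jak1 KO 5, 12 without wt 6, and 13 without Jak1 KO 1, without wt 5 or without Jak1 KO 6. Phf11d, Ifi27 and Ifi44 stayed past the threshold whichever library was omitted, with highest edgeR adjusted p of 0.0054, 0.00582 and 0.00225.

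**Figure D5:**
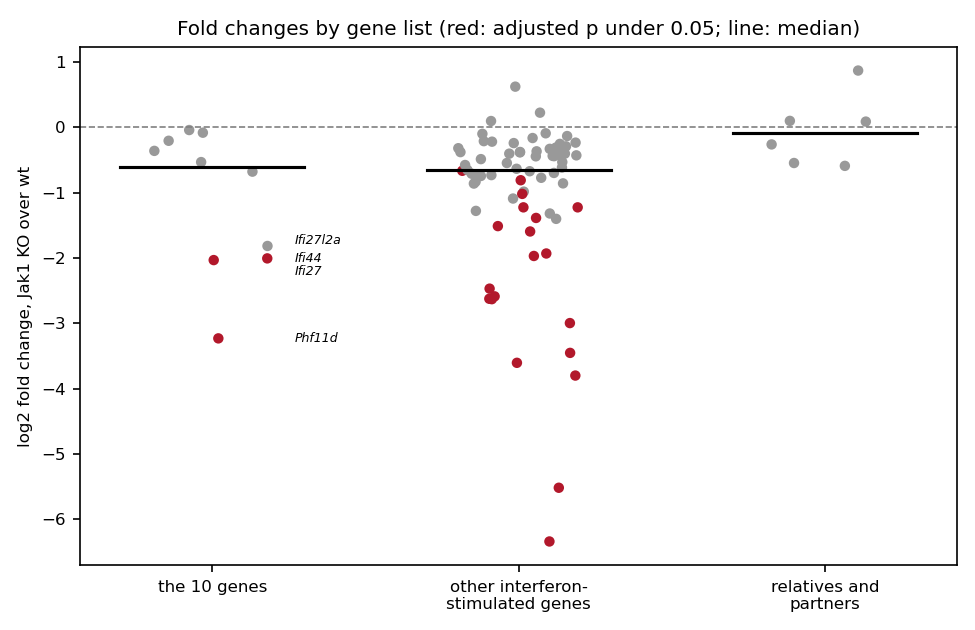
Log2 fold change of Jak1 KO over wt (y axis) of each tested gene, by list, in red where the adjusted p was under 0.05 and grey otherwise, with a line at the median. The 10 genes span -3.23 to -0.04, and the other interferon-stimulated genes span -6.34 to 0.62 with a median near theirs, at -0.66 and -0.61.

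Genes outside the 10 whose course over the 12 libraries lay nearest to the median of the 10 were found by root mean square distance in log2 CPM, after subtraction of the wt mean of the name set. The nearest were H2-T10 (distance 0.186), a non-classical class I gene, Dhx58 (0.192), an RNA helicase of the antiviral response, Sla (0.205), an adaptor protein gene, Gata1 (0.212), a transcription factor of the erythroid and megakaryocyte lineages, and Sdpr (0.216), which encodes a caveolar protein. Of the 10 themselves, Lgals3bp (0.295) and Xaf1 (0.351) lay nearest to that median course and Phf11d (2.04) farthest.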

How the data were processed

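The authors deposited raw read counts per gene symbol, whole numbers that were not normalised, made from poly-A TruSeq libraries (TRIzol RNA, per the labels' protocols) with STAR 2.3.0e, featureCounts and Subread on mm10, per the submitters' processing notes. Sources used here name neither annotation nor strand setting. Columns were matched to samples by description, groups by title, name sets by description.

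Counts of 13184 genes kept by filterByExpr were fitted in R 4.3.3 with edgeR 4.0.16 (TMM; terms for name set and genotype; quasi-likelihood F test; Benjamini-Hochberg over all genes tested, threshold 0.05). SEs are the fold change over the square root of F, and log2 CPM used a prior count of 2. Each name set alone and the interaction were fitted likewise. DESeq2 1.42.0 and limma 3.58.1 served as alternatives, and the fits were tested on simulated data. Positions, older symbols and promoters came from RefSeq (GRCm38.p6) and exon lengths from GENCODE of the same assembly. The last 50 bases of a promoter window were found in the sense direction of a GENCODE transcript for 7 of 8 genes, all but Phf11d.

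Totals ranged from 8989965 to 28701855 counts, without molecular identifiers, so intervals (95%) and floors (3 counts) cover counting error only. The members, lists, alternatives and naming rule were chosen with earlier results of these data known. By that rule the text names all 10 genes, Stat2, Irf9 and 2 further signalling genes with the smallest p, 4 other interferon-stimulated genes with the smallest p, the relatives and partners, and the 5 genes of nearest course. One gene that the rule takes is not reported here. Replicates were compared by chi-square of their counts, and every pair differed by more than sampling noise (at least 14.4 times the degrees of freedom).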

Additional observations from a re-analysis of the deposited data

Results flagged for a closer look

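In the 20 groups of 6 libraries (10 genes, both labels) examined for a value far from the other 5, 2 held such a value. The nominal rate is about 1 in 20, but it may not hold here, since each group joins VD and ZL libraries, which differ in level. Both far values were those of the library labelled Jak1 KO 4. It stood at 58.6 normalised CPM for Ifi27 (10.3 to 28.2 in the other 5 libraries labelled KO) and at 40.4 for Xaf1 (12.3 to 18.0 in the other 5).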

How the results depend on the processing

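Phf11d, Ifi27 and Ifi44 kept their direction in all 25 alternatives and passed in 24, 23 and 23 of them. Ifi27 (adjusted p = 0.0976) and Ifi44 (0.178) missed the threshold without the set term, and all 3 did in ZL alone. The count of the 10 genes called lower was 3, and 3 to 4 over the fits that left out 1 library. It was 5 with limma-voom and sample quality weights, which added Xaf1 and Lgals3bp, 1 without the set term and 0 in ZL alone. The count of other interferon-stimulated genes was 20, and 11 to 21 over the fits that left out 1 library, 39 with limma-voom, 4 without the set term and 0 in ZL alone. VD alone, with as many libraries as ZL alone, gave 3 and 21. The causes were not tested. Leaving out Jak1 KO 4, Jak1 KO 6 and wt 6 together gave 4 and 25. With the replicate number as a block the counts were 3 and 18. Deviations of same-numbered libraries correlated at 0.0429 to 0.668, not all over 0.1, which does not settle whether they were paired. The main fit took them as unpaired, and the block changed no call of the 10 genes. The direction of Nmi, never past the threshold, turned to 0.0231 with DESeq2's size factors, 0.0024 with upper quartile factors, 0.0129 without a filter, 0.0225 with the DESeq2 test and 0.116 without the set term, and ranged from -0.2541 to 0.0402 when 1 library was left out. In ZL alone Nmi (0.329), Ifi35 (0.0749) and Epsti1 (0.0852) turned positive. The count of genes differing between name sets was 0 in all 14 alternatives. Ifi27l2a had 0 to 105 counts per library.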
